A study of Mus musculus with 2 samples.

Results

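The cell cycle genes described here were 41 genes picked by symbol from the 32285 gene rows of a single-cell RNA-seq matrix of mouse pancreatic tumors. They were 24 genes whose transcripts peak in G2 and mitosis (Mki67, Top2a, Cdk1, Ccna2, Ccnb1, Ccnb2, Cdc20, Ube2c, Birc5, Cenpa, Cenpe, Cenpf, Plk1, Aurka, Aurkb, Pttg1, Bub1, Bub1b, Tpx2, Kif11, Kif20a, Nusap1, Pimreg and Spc24) and 17 genes of DNA replication and S phase (Pcna, Mcm2 to Mcm7, Tk1, Rrm1, Rrm2, Tyms, Gins2, Pclaf, Mybl2, E2f1, Ccne1 and Ccne2). All 41 had a row in the matrix, and none was used to define a cell class.

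The tumors were grown from KPC cells, a pancreatic cancer line made from mice carrying Trp53 R172H/+ and Pdx1-Cre among their alleles, which were placed in the pancreas of male C57BL/6 mice aged 5 to 7 weeks. In the iIRE group, tumors of 7 to 9 mm were partly ablated with 2 needle electrodes by irreversible electroporation, in which short electric pulses open cell membranes, and the residual tumor was taken 3 days later. The control tumors had needle insertion without pulses by the methods, and are called untreated elsewhere in the study. Each group is 1 library, the number of mice in it is not named in the sources used here, and the host mice kept their immune system.

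A cell that divides copies its DNA in S phase and separates the copies in mitosis. The S genes are switched on by E2F factors as a cell leaves G1, and the products of the G2/M genes, which are switched on later through MuvB-based complexes with B-MYB and FOXM1, condense chromosomes, build the spindle and degrade the proteins that hold it. In tumors both malignant cells and tissue macrophages can divide, whereas neutrophils in tissue and mature multinucleated osteoclasts do not.

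The matrix held 37971 barcodes, 19433 of the iIRE library with 222153118 UMIs (unique molecular identifiers, counts of single transcripts) and 18538 of the control library with 247105192 UMIs. After filters and removal of likely doublets, 15991 iIRE cells with a median of 6035 UMIs and 15274 control cells with a median of 7368.5 UMIs were kept, and 458 barcode sequences occurred in both libraries. The library of a barcode was read from its ending, which the sample labels number. The study describes the deeper library as iIRE, while the barcodes that the labels give to iIRE had fewer UMIs each. Other numbers in the study, more cells in iIRE and fewer T, dendritic and acinar cells, run the way the labels give the endings. The increase of macrophages that the study describes in iIRE does not run that way. Here T and NK cells were 18 in iIRE and 54 in control, and dendritic cells 38 in iIRE and 89 in control. Macrophages were 932 in iIRE (5.83% of the kept cells) and 980 in control (6.42%). Were the endings exchanged, every ratio of iIRE over control below would change sign.

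Cells were assigned to classes by marker genes. There were 932 iIRE and 980 control macrophages (C1qa, Csf1r and 8 other markers), and 145 iIRE and 110 control osteoclast-like cells, with Acp5, Ctsk and 8 other osteoclast markers summing to 19598 CPM (UMIs per 1000000 UMIs of the class) in iIRE and 29652 CPM in control. Tumor cells were taken by Cdkn2a, which marks this line, at 1662 CPM in iIRE and 1544 CPM in control epithelial-type cells, against 14.3 CPM in iIRE and 12.1 CPM in control macrophages. They were split by keratins and collagens into epithelial-type (1549 iIRE, 1521 control), intermediate (1124 iIRE, 1222 control), mesenchymal-type (2322 iIRE, 2375 control) and keratin-high cells (231 iIRE, 149 control). Transcripts of 4 Y-linked genes of the male hosts summed to 118.5 CPM in the macrophages of each library. They summed to between 0.072 and 0.526 CPM in epithelial-type, intermediate and mesenchymal-type cells. In keratin-high cells they summed to 0.644 CPM in iIRE and 0 CPM in control.

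A further 8357 iIRE barcodes (52.3% of the library) and 7475 control barcodes (48.9%) carried Cdkn2a and collagen transcripts together with much ribosomal-repeat RNA, a median of 230.1 UMIs of Gm42418 and AY036118 per 10000 in iIRE and 205.3 in control. Leukocyte markers summed to 308 CPM in iIRE and 251 CPM in control in these barcodes, against 3.86 CPM in iIRE epithelial-type cells. The tumor gates required fewer than 2 leukocyte marker UMIs per 10000, so that low value follows from the gate. They are called mixed-profile below and were kept out of the tumor cell classes. The limit on ribosomal-repeat RNA that sets them apart was chosen after the data were seen.

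To compare shares across depths, each cell was thinned at random to 2000 UMIs, and a cell with at least 3 UMIs over the 24 G2/M genes was counted as dividing. A level is the CPM after adding up all UMIs of a class in a library. With 1 library per group no test between tumors could be made: the 95% intervals in brackets cover counting error only, treat the UMIs of one cell as independent in sums, and hold no spread between animals. Neutrophils gave the background of free RNA. At 1000 UMIs per cell, to which they had to be thinned, 1 of 125 iIRE neutrophils (0.8%) and 0 of 117 control neutrophils, which allows up to 2.56%, reached 3 G2/M UMIs. At the same depth 14.8% of iIRE and 9.29% of control macrophages did. All neutrophils together had 536 CPM of G2/M genes in iIRE and 85.8 CPM in control, but 82 of the 103 iIRE UMIs were in 1 cell. Without the cell with the most G2/M UMIs in each library the levels were 115 CPM in iIRE and 80.7 CPM in control, against macrophage sums of 1526 CPM in iIRE and 1039 CPM in control. The median depth was 1320 UMIs in iIRE and 1337 in control neutrophils, and 5747 in iIRE and 6637 in control macrophages.

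The promoters of 32 of the 41 genes were in a RefSeq table for GRCm38.p6 and were read for the short elements of the 2 control systems above. The 200 bases before the start of 4 of them are printed. Ube2c, Cdk1 and Mki67 are shown because they stand at the ends of the G2/M patterns described below, and Mcm5 as an S gene that holds E2F words. They are Ube2c (chr2:164769729-164769928, plus strand), Cdk1 (chr10:69352913-69353112, minus strand) and Mki67 (chr7:135716380-135716579, minus strand) of the G2/M genes and Mcm5 (chr8:75109309-75109508, plus strand) of the S genes. Capitals mark TTTGAA, the core of the CHR element, CCAAT, and the E2F words TTTCCCGC, TTTGGCGC and TTTCGCGC on either strand, and neighbouring matches may overlap.
Ube2c: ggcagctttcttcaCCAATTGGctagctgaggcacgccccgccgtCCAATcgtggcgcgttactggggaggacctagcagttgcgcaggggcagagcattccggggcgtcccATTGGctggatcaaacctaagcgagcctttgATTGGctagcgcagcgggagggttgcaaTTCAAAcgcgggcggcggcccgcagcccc
Cdk1: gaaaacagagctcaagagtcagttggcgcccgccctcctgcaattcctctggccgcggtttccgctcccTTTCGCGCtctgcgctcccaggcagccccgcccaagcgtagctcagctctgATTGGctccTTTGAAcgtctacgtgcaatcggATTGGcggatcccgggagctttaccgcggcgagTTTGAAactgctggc
Mki67: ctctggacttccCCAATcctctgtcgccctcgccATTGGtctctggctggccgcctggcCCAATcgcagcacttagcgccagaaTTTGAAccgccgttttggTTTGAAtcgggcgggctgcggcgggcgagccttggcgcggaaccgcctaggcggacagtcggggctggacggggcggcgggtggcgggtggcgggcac
Mcm5: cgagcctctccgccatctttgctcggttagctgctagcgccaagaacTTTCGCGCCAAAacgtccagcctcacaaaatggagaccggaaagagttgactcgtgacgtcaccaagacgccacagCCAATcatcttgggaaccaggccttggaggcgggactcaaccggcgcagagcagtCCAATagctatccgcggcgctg
The last CHR match lay 29 bases before the start in Ube2c, 15 in Cdk1 and 98 in Mki67, and Mcm5 held none in these 200 bases. The E2F words stood 131 bases before the start in Cdk1 and 149 in Mcm5. The start used here is that of RefSeq, whereas gene positions given below are from GENCODE. By GENCODE, the Ube2c and Cdk1 genes begin within the printed stretches, and these last CHR matches lie inside the genes.

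Over 250 bases before to 50 after the start, 12 of 18 matched G2/M genes (66.7%) held TTTGAA, against 1 of 14 S genes (7.14%) and 17.9% of the 32851 promoters in the table. All of those 12 also held CCAAT, a pair found in 6.95% of all promoters. The E2F words were in 5 of 14 S genes (35.7%), namely Mcm3, Mcm5, Mcm6, Mcm7 and Pclaf, in 1 of 18 G2/M genes (5.56%), which was Cdk1, and in 1.84% of all promoters. In a window of 150 bases before the start the shares were lower: TTTGAA was in 6 of 18 G2/M genes (33.3%) and 9.07% of all promoters, and the E2F words in 2 of 14 S genes (14.3%) and 1.02% of all. A match is a description of the letters and not evidence of a bound site.

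Dividing cells made up a larger share of macrophages and of osteoclast-like cells in the iIRE library, and close shares of the tumor cell classes in both libraries. Dividing macrophages were 178 of 875 (20.3% [17.7, 23.2]) in iIRE and 127 of 913 (13.9% [11.7, 16.3]) in control, a log2 ratio of 0.55 [0.21, 0.89]. Without thinning the shares were 29.5% in iIRE and 25.3% in control. Among osteoclast-like cells 39 of 143 (27.3% [20.2, 35.3]) were dividing in iIRE and 12 of 108 (11.1% [5.87, 18.6]) in control, a log2 ratio of 1.30 [0.33, 2.36]. Both intervals of the ratio lay above 0.

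**Figure D1:**
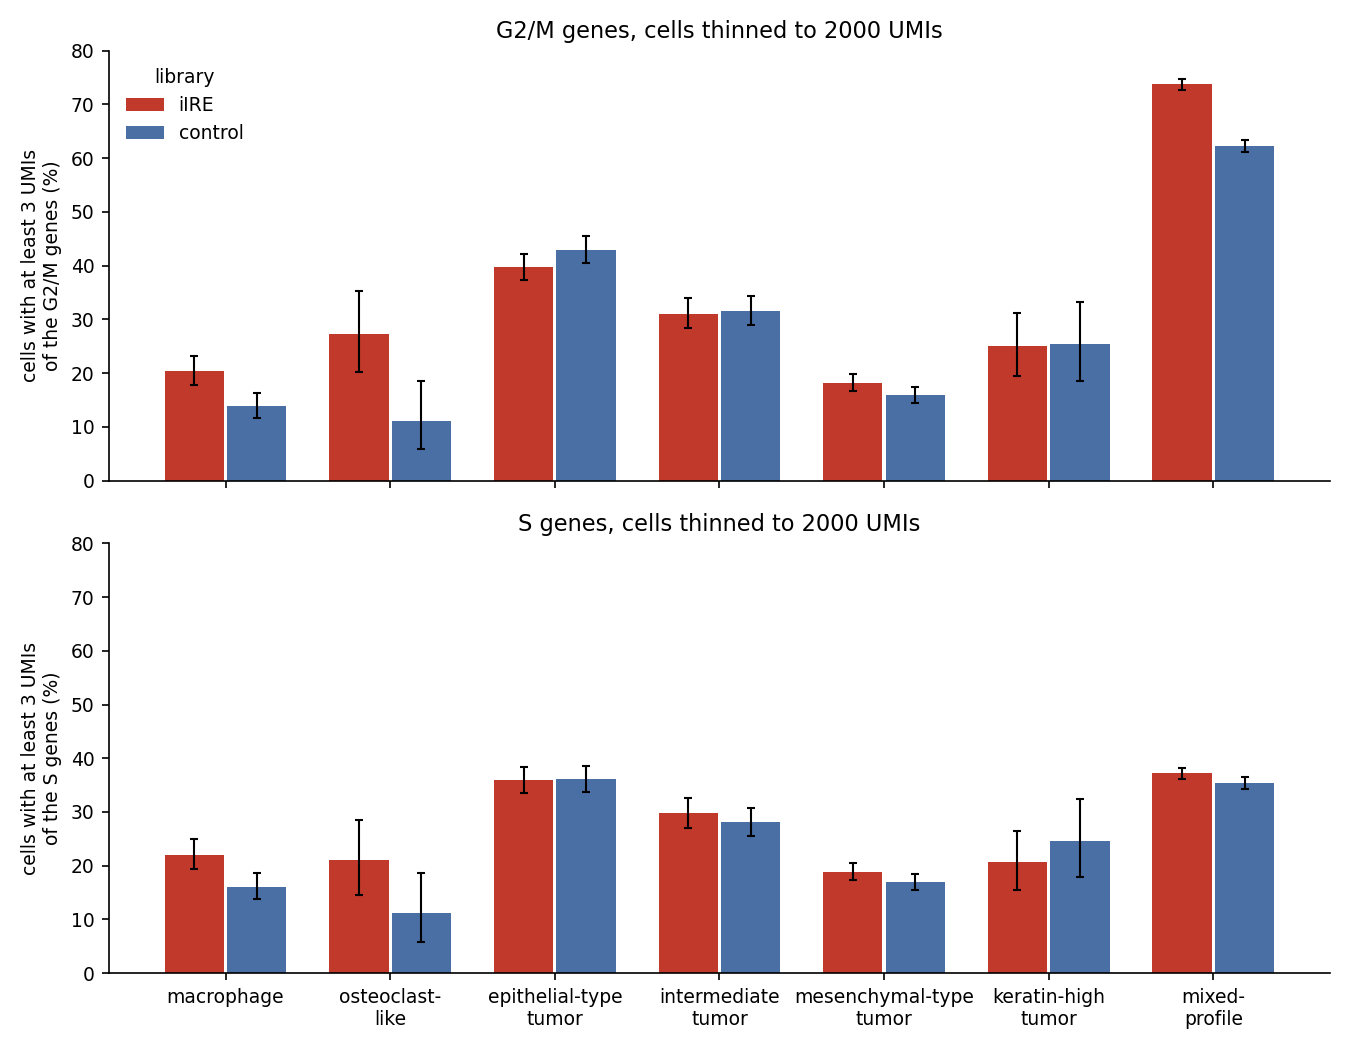
Share of cells (y axis, percent) with at least 3 UMIs of the G2/M genes (upper) or the S genes (lower) after thinning to 2000 UMIs, for 7 cell classes in the iIRE (red) and control (blue) libraries; bars are the share in 1 library and lines its exact 95% counting interval. In macrophages the G2/M share was 20.3% in iIRE and 13.9% in control, and in epithelial-type tumor cells 39.7% in iIRE and 43.0% in control.

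Epithelial-type tumor cells had the highest dividing share of the tumor classes in both libraries, 611 of 1538 (39.7% [37.3, 42.2]) in iIRE and 652 of 1518 (43.0% [40.4, 45.5]) in control. The log2 ratio of -0.11 [-0.27, 0.05] spanned 0. Intermediate cells were 31.1% dividing in iIRE and 31.6% in control, and keratin-high cells 25.0% in iIRE and 25.3% in control. Mesenchymal-type cells had the lowest share, 421 of 2315 (18.2% [16.6, 19.8]) in iIRE and 377 of 2369 (15.9% [14.5, 17.5]) in control, with a log2 ratio of 0.19 [-0.01, 0.40]. The order of the 4 tumor classes was the same in both libraries, although the intervals of keratin-high and intermediate cells overlapped in each, and those of keratin-high and mesenchymal-type cells in iIRE.

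The S genes gave the same order between epithelial-type and mesenchymal-type cells. Cells with at least 3 S UMIs were 22.1% of iIRE and 16.1% of control macrophages, a log2 ratio of 0.45 [0.14, 0.77], and 21.0% of iIRE and 11.1% of control osteoclast-like cells (0.92 [-0.09, 2.02]). They were 35.9% of iIRE and 36.1% of control epithelial-type cells, and 18.8% of iIRE and 16.9% of control mesenchymal-type cells. Cells with G2/M genes at the threshold but not S genes, 9.37% of iIRE and 5.37% of control macrophages, were 16.1% of iIRE and 4.63% of control osteoclast-like cells. In epithelial-type cells that share was 17.4% in iIRE and 17.7% in control.

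In macrophages the higher share came with higher levels of nearly all of the G2/M genes and of part of the S genes. The 24 G2/M genes summed to 1526 CPM in iIRE and 1039 CPM in control (log2 ratio 0.55 [0.51, 0.60]), and the 17 S genes to 1061 CPM in iIRE and 820 CPM in control (0.37 [0.32, 0.42]). For single genes the log2 ratio was taken after adding 10 CPM to both levels, and a gene was counted as higher or lower when it was past 1.2-fold. By this count 31 of 41 genes were higher and 0 lower in iIRE macrophages, against 7.4% of all 9775 genes measured in this class that were higher and 4.38% that were lower. The 31 were 22 of 24 G2/M genes and 9 of 17 S genes.

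Birc5 (chr11:117849251-117855743 in mm10), which encodes survivin, a subunit of the chromosomal passenger complex, had the highest ratio: 172.5 CPM in iIRE and 99.9 CPM in control macrophages (0.73). Top2a, the topoisomerase that untangles replicated DNA, was at 150.2 CPM in iIRE and 115.6 CPM in control (0.35). Spc24, a kinetochore protein, had the lowest ratio of the spindle and centromere genes, 34.7 CPM in iIRE and 27.9 CPM in control (0.24). Of these 12 genes 11 were past 1.2-fold.

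Of the cyclins and Cdk1, the kinase they activate, all 4 were past 1.2-fold. Ccnb2, a mitotic cyclin, had 57.7 CPM in iIRE and 34.6 CPM in control macrophages (0.60). Cdk1 was at 75.1 CPM in iIRE and 60.2 CPM in control (0.28), and Ccna2, the cyclin of S phase and G2, at 53.1 CPM in iIRE and 36.3 CPM in control (0.45). The kinases and checkpoint genes were split: Bub1, a kinetochore kinase, had 21.8 CPM in iIRE and 12.1 CPM in control (0.53), and Aurkb, the kinase of the passenger complex, 34.4 CPM in iIRE and 21.4 CPM in control (0.50). Bub1b, which encodes the checkpoint protein BubR1, had 28.1 CPM in iIRE and 27.4 CPM in control (0.03), and the intervals of its levels overlapped.

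The genes grouped here under the anaphase-promoting complex, the ubiquitin ligase that ends mitosis, were all past 1.2-fold in macrophages. They are partners and a substrate of the complex, and none is one of its subunits. Ube2c (chr2:164769898-164778822), its ubiquitin-conjugating enzyme, was at 176.1 CPM in iIRE and 103.0 CPM in control (0.72). Its substrate securin, Pttg1, had 119.5 CPM in iIRE and 79.7 CPM in control (0.53), and its activator Cdc20 had 29.97 CPM in iIRE and 19.2 CPM in control (0.45).

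Among the S genes the ratios in macrophages ran between -0.01 and 0.51. Pclaf, a partner of the PCNA clamp, had 134.7 CPM in iIRE and 91.6 CPM in control (0.51). Mcm4 and Mcm6, subunits of the replicative helicase, had ratios of -0.01 and 0.22: Mcm4 was at 42.7 CPM in iIRE and 42.9 CPM in control, and Mcm6 at 125.2 CPM in iIRE and 105.8 CPM in control. Thymidine kinase, Tk1, had 98.6 CPM in iIRE and 82.0 CPM in control (0.24), just inside 1.2-fold.

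The gate itself requires macrophage markers and little Cdkn2a, so these describe the dividing macrophages and are no check of them. In them the 10 macrophage markers summed to 15758 CPM in iIRE and 13327 CPM in control, against 16526 CPM in iIRE and 17195 CPM in control in macrophages that were not dividing. In the dividing cells Cdkn2a was at 12.8 CPM in iIRE and 13.6 CPM in control, and the Y-linked genes, which the gate did not use, were at 107 CPM in iIRE and 98.4 CPM in control. Macrophages with a UMI of the monocyte genes Ccr2 or Ly6c2 were dividing in 18.6% of iIRE and 13.2% of control cells, and those without in 20.9% of iIRE and 14.2% of control cells. The share of cells with S genes was 14.9% in iIRE and 12.8% in control with these transcripts, and 24.5% in iIRE and 17.3% in control without. The difference between the cells with and without them was not tested. Transcripts of 11 acinar enzymes, which macrophages do not make, summed to 182.4 CPM in iIRE and 124.6 CPM in control macrophages, and their part in the result was not tested.

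**Figure D2:**
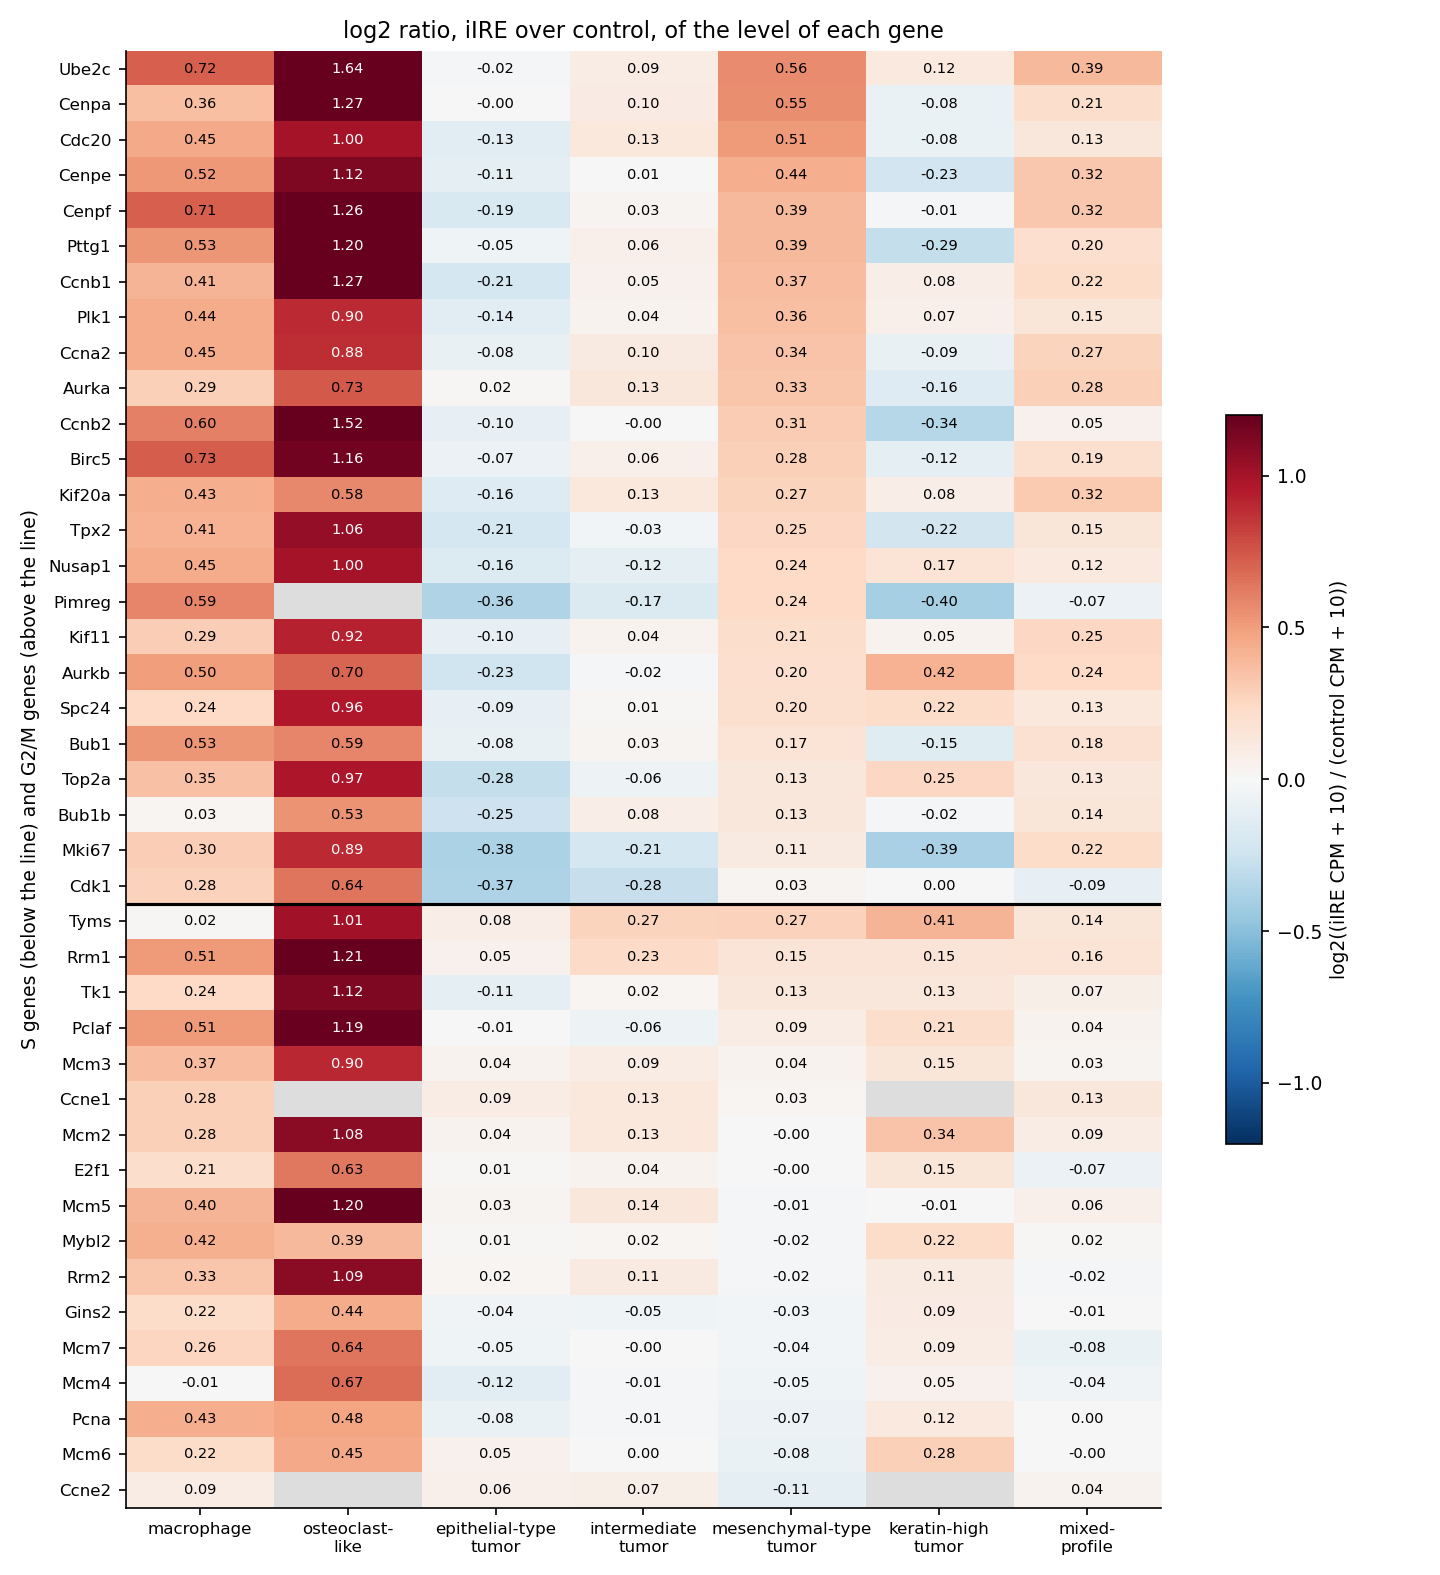
Log2 ratio, iIRE over control, of the level of each of the 41 genes (rows, G2/M genes above the line and S genes below it) in 7 cell classes (columns), after adding 10 CPM to both levels; red is higher in iIRE, blue lower, colors saturate at 1.2, and grey marks genes with under 50 UMIs in the class. Ube2c was at 0.72 in macrophages, 1.64 in osteoclast-like cells, -0.02 in epithelial-type and 0.56 in mesenchymal-type tumor cells.

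Osteoclast-like cells, which fuse from macrophage precursors and dissolve bone matrix in their usual tissue, showed the widest difference between libraries of the 7 classes plotted by share. Their G2/M genes summed to 1811 CPM in iIRE and 738 CPM in control (log2 ratio 1.29 [1.202, 1.389]), and their S genes to 1098 CPM in iIRE and 568 CPM in control (0.95 [0.84, 1.06]). All 38 genes with at least 50 UMIs were past 1.2-fold higher and 0 lower. In this small class 20.3% of all 6912 genes were higher and 13.3% lower by the same count. Pimreg, Ccne1 and Ccne2 had under 50 UMIs and were not counted.

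Ube2c had the highest ratio, 268.4 CPM in iIRE and 79.2 CPM in control osteoclast-like cells (1.64), followed by Ccnb2 at 92.4 CPM in iIRE and 25.6 CPM in control (1.52). Cdk1 was at 79.9 CPM in iIRE and 47.6 CPM in control (0.64), Birc5 at 174.6 CPM in iIRE and 72.7 CPM in control (1.16), and Bub1b at 47.6 CPM in iIRE and 29.8 CPM in control (0.53). The S genes ran from 0.39 for Mybl2, the B-MYB factor, to 1.21 for Rrm1, a ribonucleotide reductase subunit with 100.1 CPM in iIRE and 37.5 CPM in control.

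The dividing cells of this class were mostly those with fewer osteoclast transcripts than the rest of it. The osteoclast markers summed to 10399 CPM in iIRE and 7662 CPM in control dividing cells. In cells that were not dividing they summed to 24005 CPM in iIRE and 33255 CPM in control. Split at the median marker level of the class, 209 UMIs per 10000, 37 of 86 iIRE cells (43.0% [32.4, 54.2]) and 12 of 41 control cells (29.3% [16.1, 45.5]) below it were dividing. At or above the median 2 of 57 iIRE cells (3.51%) and 0 of 67 control cells were, and a count of 0 allows up to 4.48%. Cells below the median were 59.3% of the class in iIRE and 37.3% in control, so the class held a larger marker-low portion in the library with the larger dividing share. Within the marker-low portion the intervals overlapped, while its G2/M sum was 2703 CPM in iIRE and 1662 CPM in control.

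**Figure D3:**
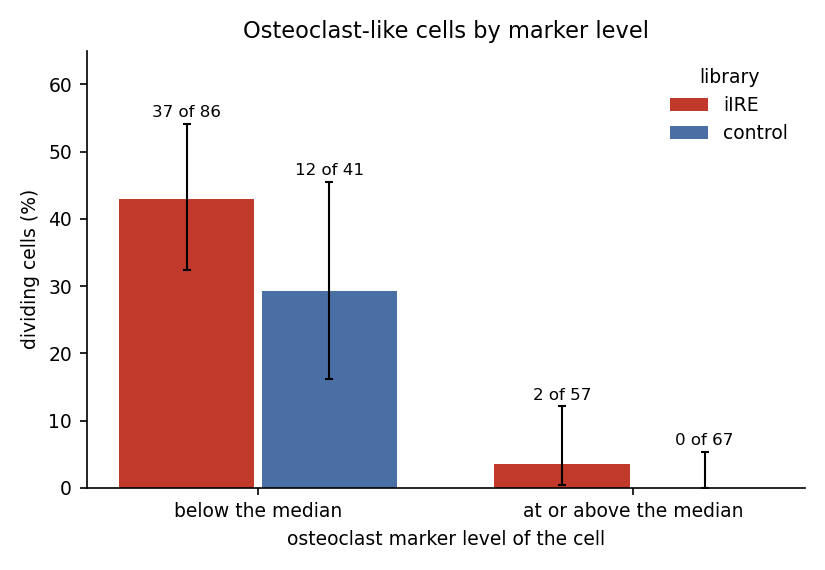
Share of dividing cells (y axis, percent) among osteoclast-like cells below and at or above the median level of the osteoclast markers, in the iIRE (red) and control (blue) libraries; lines are exact 95% counting intervals. Below the median 37 of 86 iIRE and 12 of 41 control cells were dividing, and above it 2 of 57 iIRE and 0 of 67 control cells.

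With the marker minimums of the gates doubled, 18.6% of iIRE and 2.27% of control osteoclast-like cells were dividing, a log2 ratio of 3.03. That control share rests on very few dividing cells, and no interval is given for this ratio. With the doubled minimums 22 of the genes were past 1.2-fold higher. Neither the number with enough UMIs nor the share of all genes is given for this setting. Over all random thinnings the expected shares were 28.6% in iIRE and 9.05% in control. The acinar transcripts summed to 68.3 CPM in iIRE and 26.8 CPM in control in this class, and their part in the result was not tested.

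In epithelial-type tumor cells the G2/M genes were slightly lower in the iIRE library and the S genes close. The G2/M sum was 2444 CPM in iIRE and 2712 CPM in control (log2 ratio -0.15 [-0.16, -0.14]), and the S sum 1369 CPM in iIRE and 1382 CPM in control (-0.01 [-0.03, 0.00]). Of the 41 genes 0 were past 1.2-fold higher and 4 lower, beside 0.799% of all 12266 genes higher and 0.946% lower. The 4 were Mki67, Cdk1, Pimreg and Top2a. Counted after thinning to 2000 UMIs, 7 genes were lower, and the share of all genes in that setting is not given.

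Mki67 (chr7:135689784-135716361), whose protein coats mitotic chromosomes, had 83.5 CPM in iIRE and 111.8 CPM in control epithelial-type cells (-0.38). Cdk1 (chr10:69335146-69352938) had 84.8 CPM in iIRE and 112.3 CPM in control (-0.37), and Top2a 234.8 CPM in iIRE and 287.6 CPM in control (-0.28). Their level intervals did not overlap between libraries. Cenpa, the histone variant of centromeres, had the highest ratio of its role group, with 168.8 CPM in iIRE and 169.2 CPM in control (-0.0032).

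The kinases ran between -0.25 for Bub1b, with 39.4 CPM in iIRE and 48.8 CPM in control, and 0.02 for Aurka, the kinase of spindle poles, with 42.9 CPM in iIRE and 42.3 CPM in control. Aurka was the exception among the 24 G2/M genes, as the other 23 had a ratio below 0. Ube2c was at 402.3 CPM in iIRE and 407.3 CPM in control (-0.02), Pttg1 at 157.5 CPM in iIRE and 163.6 CPM in control (-0.05), and Cdc20 at 67.0 CPM in iIRE and 74.1 CPM in control (-0.13). The S genes lay between -0.12 for Mcm4 (80.1 CPM in iIRE, 88.1 CPM in control) and 0.09 for Ccne1, a cyclin of S phase entry (7.01 CPM in iIRE, 6.02 CPM in control).

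Mesenchymal-type tumor cells differed in the other direction, and more in the G2/M genes than in the S genes. Their G2/M sum was 1329 CPM in iIRE and 1027 CPM in control (log2 ratio 0.37 [0.35, 0.39]), and their S sum 902 CPM in iIRE and 877 CPM in control (0.04 [0.02, 0.06]). Of the 41 genes 14 were past 1.2-fold higher and 0 lower, against 1.1% of all 12626 genes higher and 1.03% lower. They were 13 of 24 G2/M genes and, of the S genes, Tyms, the thymidylate synthase. After thinning to 2000 UMIs 9 genes were higher, again without a share of all genes in that setting.

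Ube2c, Cenpa and Cdc20 had the widest ratios. Ube2c had 169.9 CPM in iIRE and 111.6 CPM in control mesenchymal-type cells (0.56), Cenpa 93.6 CPM in iIRE and 60.6 CPM in control (0.55), and Cdc20 33.6 CPM in iIRE and 20.6 CPM in control (0.51). Mki67, at 56.6 CPM in iIRE and 51.8 CPM in control (0.11), and Cdk1, at 52.0 CPM in iIRE and 50.7 CPM in control (0.03), were at the low end of the same list. All 24 G2/M genes had a ratio above 0. Of the S genes, Tk1 was at 141.3 CPM in iIRE and 127.8 CPM in control (0.13), Mcm6 at 95.2 CPM in iIRE and 101.2 CPM in control (-0.08), and Tyms at 75.5 CPM in iIRE and 60.7 CPM in control (0.27).

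Epithelial-type cells held more G2/M and S transcripts than mesenchymal-type cells in each library. The G2/M sum was 1.84-fold higher in iIRE and 2.64-fold higher in control, and all 24 G2/M genes were past 1.2-fold in both libraries. The S sum was 1.52-fold higher in iIRE and 1.58-fold higher in control, with 13 of 17 genes past 1.2-fold in iIRE and 14 in control. The share of all genes past this fold between epithelial-type and mesenchymal-type cells is not given. Whether these counts are particular to the cell cycle genes was therefore not tested. Cells of a library share its processing, and cells of a class share their tumor, so this comparison of classes has no replicates either.

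Hypoxic tumor cells, gated by Car9, Ndrg1, Vegfa and 7 other genes of low oxygen, had fewer dividing cells in both libraries. Among epithelial-type cells 19 of 148 hypoxic cells (12.8% [7.91, 19.3]) were dividing in iIRE and 17 of 146 (11.6% [6.93, 18.0]) in control, while other epithelial-type cells were at 42.6% in iIRE and 46.3% in control. In mesenchymal-type cells the hypoxic ones were at 3.20% in iIRE and 2.96% in control, and the others at 19.0% in iIRE and 16.7% in control. The median depth was lower in hypoxic epithelial-type cells, 14712 UMIs in iIRE and 17630.5 in control, against 23751 in iIRE and 28117.5 in control in the others, before thinning.

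Intermediate tumor cells showed close values for nearly all genes. Their G2/M sum was 2001 CPM in iIRE and 1975 CPM in control (log2 ratio 0.02, and -0.070 after thinning to 2000 UMIs) and their S sum 1214 CPM in iIRE and 1161 CPM in control (0.06). Tyms was past 1.2-fold higher, at 101.8 CPM in iIRE and 82.8 CPM in control (0.27), and Cdk1 lower, at 67.5 CPM in iIRE and 84.0 CPM in control (-0.28). That is 1 gene of 41 in each direction, with 1.32% of all genes higher and 1.4% lower. Counted after thinning, 4 genes were higher and 6 lower, but the shares of all genes above are for the sums without thinning.

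Keratin-high cells, the smallest tumor class, gave 4 of 39 genes higher and 4 lower, beside 7.03% of all genes higher and 7.35% lower. Aurkb had 36.3 CPM in iIRE and 24.7 CPM in control (0.42), and Ccnb2 55.6 CPM in iIRE and 73.1 CPM in control (-0.34). Their G2/M sum was 1654 CPM in iIRE and 1704 CPM in control (-0.04), and their S sum 959 CPM in iIRE and 837 CPM in control (0.20). With doubled marker minimums the G2/M ratio was -0.31 and the S ratio 0.79, so both moved widely with the gate.

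In mixed-profile barcodes the G2/M transcripts were spread over most barcodes. At least 3 G2/M UMIs were present in 73.7% of iIRE and 62.3% of control barcodes, and only 6.46% of iIRE and 9.54% of control barcodes had none. In macrophages, osteoclast-like cells and the 4 tumor classes the counts per cell were split, with many cells at 0 and a tail of cells with many UMIs: among macrophages 58.5% of iIRE and 64.3% of control cells had none, and the variance of the count was 9.80 times its mean in iIRE and 8.50 times in control. In mixed-profile barcodes the variance was 1.48 times the mean in iIRE and 1.79 times in control, where a Poisson count has a variance equal to its mean, so the share past 3 UMIs is not given as a dividing share for them. Acinar-rich cells (80 iIRE, 112 control) came near this, at 2.91 times in iIRE and 1.73 times in control.

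**Figure D4:**
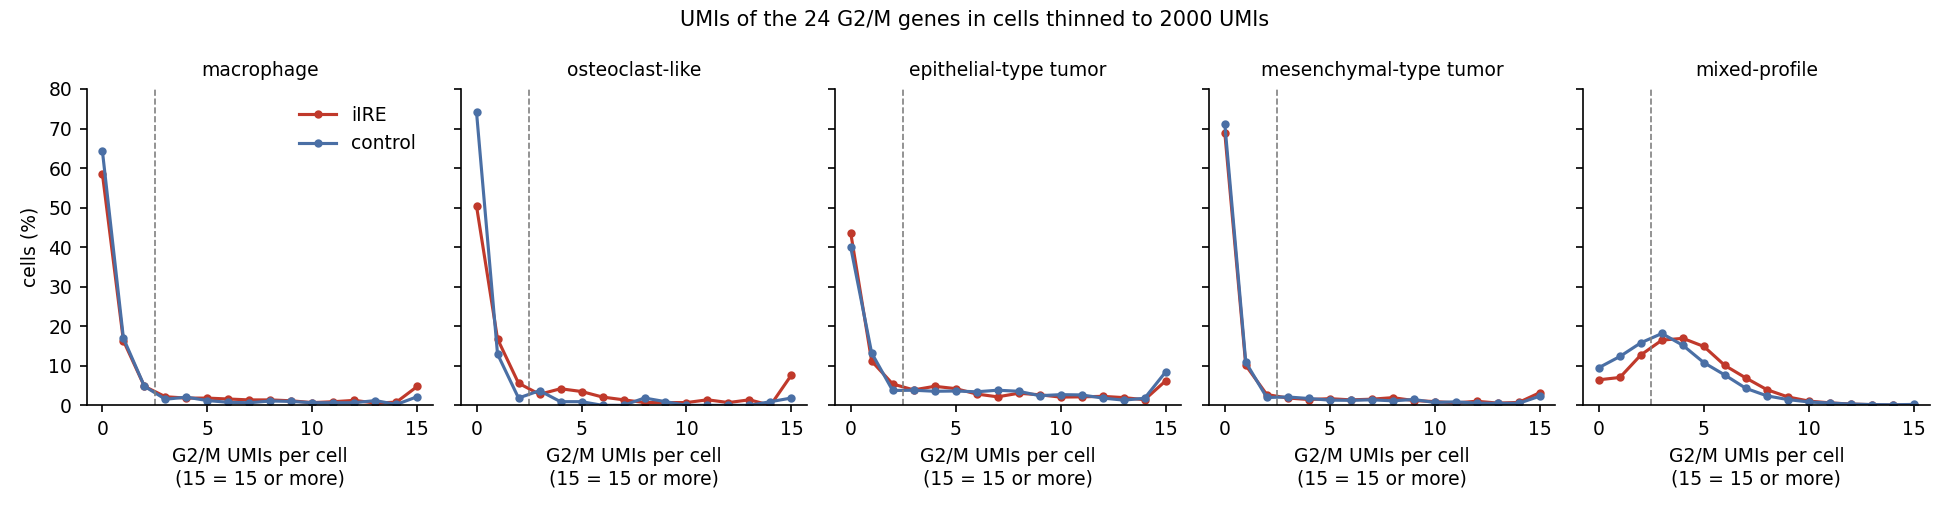
Share of cells (y axis, percent) by their number of UMIs over the 24 G2/M genes (x axis, 15 standing for 15 or more) after thinning to 2000 UMIs, in 5 classes and both libraries (iIRE red, control blue); the dashed line is the limit of 3 UMIs. Most macrophages sit at 0, with 58.5% in iIRE and 64.3% in control, while the mixed-profile barcodes form 1 hump.

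The G2/M sum of mixed-profile barcodes was 1945 CPM in iIRE and 1659 CPM in control (log2 ratio 0.23 [0.22, 0.24]), and the S sum 1063 CPM in iIRE and 1037 CPM in control (0.04, and -0.015 with TMM factors, another scaling of the libraries). Of the 41 genes 6 were past 1.2-fold higher and 0 lower, with 2.5% of all genes higher and 1.53% lower. Ube2c led with 212.9 CPM in iIRE and 160.2 CPM in control (0.39), and Cdk1 had 59.2 CPM in iIRE and 63.9 CPM in control (-0.09).

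The make-up of the G2/M sum differed between libraries in a like way in several classes. Ube2c took 11.5% of the sum in iIRE and 9.91% in control macrophages, 16.5% in iIRE and 15.02% in control epithelial-type cells, and 12.8% in iIRE and 10.9% in control mesenchymal-type cells. Its share was higher in iIRE in 7 of 7 classes, with log2 ratios between 0.07 and 0.47. The share taken by Cdk1 was lower in iIRE in 6 of 7 classes (median log2 ratio -0.33), and that of Mki67 in 6 of 7 (median -0.26). Pimreg (median -0.28), Top2a (-0.14) and Tpx2 (-0.07) were also lower in 6 of 7. The classes come from the same 2 libraries and are not independent, and these genes were singled out after their values were seen.

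**Figure D5:**
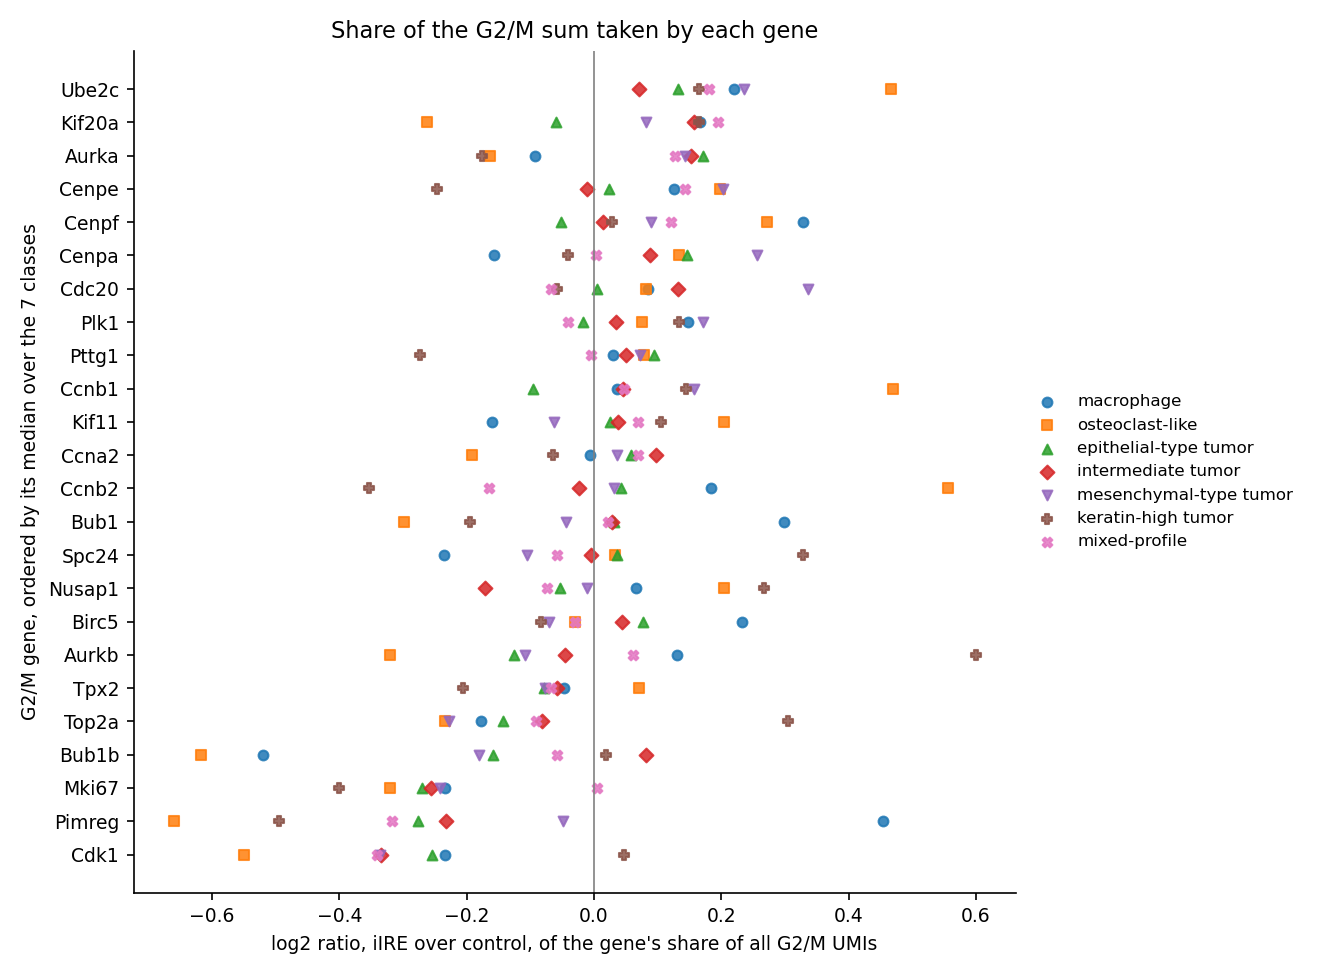
Log2 ratio, iIRE over control, of the share of all G2/M UMIs that each gene took (x axis) for the 24 G2/M genes (y axis, ordered by the median over classes) in 7 cell classes (symbols). Ube2c lies right of 0 in all 7 classes, between 0.07 and 0.47, and Cdk1 left of 0 in 6 of 7.

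Other genes of the same processes, from lists of 60 mitosis and 45 replication genes, were counted by the same rule. In macrophages 30 of 58 counted mitosis genes were past 1.2-fold higher and 0 lower (median log2 ratio 0.28, against 0.03 over all genes), and 8 of 43 replication genes were higher and 0 lower, beside 7.4% of all genes higher. In osteoclast-like cells it was 32 of 35 mitosis genes and 23 of 31 replication genes, beside 20.3% of all genes, with 0 lower in each (1 replication gene lower with TMM factors). Epithelial-type cells had 0 mitosis genes higher and 3 of 60 lower, and mesenchymal-type cells 6 of 60 higher and 0 lower, beside 0.946% of all genes lower in epithelial-type and 1.1% higher in mesenchymal-type cells. In both of these classes 0 of 45 replication genes were past 1.2-fold.

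Cks1b, a small subunit of cyclin-dependent kinases, had 109.0 CPM in iIRE and 77.7 CPM in control macrophages (0.44), 139.5 CPM in iIRE and 58.4 CPM in control osteoclast-like cells (1.13), and 407.7 CPM in iIRE and 397.9 CPM in control epithelial-type cells (0.03). Dut, which keeps uracil out of DNA, had 72.0 CPM in iIRE and 60.3 CPM in control macrophages (0.22) and 278.7 CPM in iIRE and 270.4 CPM in control epithelial-type cells (0.04).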

How the data were processed

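Dissociated tumors of both groups were profiled with 10x Genomics 5-prime chemistry. The authors deposited raw UMI counts of both libraries in 1 matrix made with Cell Ranger and STAR on mm10. The matrix header names software version 7.0.1, while the methods name another. No column of other samples was present.

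Cells were kept with at least 200 genes, 1000 UMIs, a log10 gene to log10 UMI ratio of 0.7, and at most 5% mitochondrial and 5% hemoglobin UMIs. Doublets were scored from simulated pairs (30 components, 40 neighbours), and 2836 iIRE cells (15.1%) and 2538 control cells (14.2%) were removed, at 0.8% per 1000 cells. Gates used summed markers per 10000 UMIs and the number of markers detected. Their limits were set after the data were seen, from markers and, for tumor classes and mixed-profile barcodes, also from ribosomal-repeat RNA. Intervals were Clopper-Pearson for shares, exact Poisson for sums and conditional binomial for ratios, at the 95% level, and UMIs of cells from 1 tumor sample are not independent. A gene was counted with at least 50 UMIs over both libraries of a class. CPM were also scaled with TMM factors from edgeR 4.0.16, and the median log2 ratio of all genes stayed within 0.05 of 0 in every class. Scripts ran in Python 3.11.15 and R 4.3.3 and were tested on simulated data. No p-values were computed, since each group is 1 library.

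The members and lists were chosen with earlier results of these data known. In each role group the genes with the highest CPM over all classes and the largest ratios in either direction in macrophages and epithelial-type cells were named, and of each other list the genes with the highest CPM. Others named were chosen after their values were seen. Gene positions are from GENCODE vM21 and promoters from RefSeq. Cdkn2a is both a gate gene and a member of the inhibitor list. A further allele of the tumor line is not reported here.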

Additional observations from a re-analysis of the deposited data

Results flagged for a closer look

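The G2/M sum differed in sign between classes under the same contrast of iIRE over control. In epithelial-type tumor cells its log2 ratio was -0.15, whereas it was 0.55 in macrophages, 1.29 in osteoclast-like cells, 0.019 in intermediate tumor cells, 0.37 in mesenchymal-type tumor cells and 0.23 in mixed-profile barcodes. Keratin-high tumor cells had -0.043, the sign of epithelial-type cells. The intermediate value was below 0 with doubled gate minimums (-0.0012), with a lower limit on ribosomal-repeat RNA (-0.015) and after thinning (-0.070). Each class had 1 library per group, and the difference between classes was not tested.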

How the results depend on the processing

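No paired analysis was possible because each group has 1 library, and no replicate could be left out. No ratio at or past 1.2-fold in the main setting changed sign. Some smaller ratios changed sign and left their intervals. Among them were the keratin-high S share (main log2 ratio -0.26) and S sum (0.20) and the intermediate G2/M sum (0.019). Of the values under other settings, 112 of 120 shares, 43 of 78 sums, 104 of 120 counts of genes and 803 of 861 single-gene ratios stayed within their limits, and 176 of 198 shares and sums kept their sign. The cause of the moves below was not tested. Values are log2 ratios of iIRE over control unless called counts. The share of all genes past 1.2-fold is given only for the main setting, so the counts below have none beside them. With doubled gate minimums the G2/M and S sums were 0.62 and 0.44 in macrophages, 2.51 and 1.24 in osteoclast-like cells (dividing share 3.03, count higher 22), -0.31 and 0.79 in keratin-high cells (S share 1.06, counts 14 higher and 9 lower), and the G2/M sum was -0.17 in epithelial-type and -0.0012 in intermediate cells (count higher 0). With TMM factors they were 0.49 and 0.31 in macrophages and 0.18 and -0.015 in mixed-profile barcodes, and the intermediate count higher was 0. Summed after thinning to 2000 UMIs, the G2/M and S sums were 1.59 and 0.69 in osteoclast-like, -0.18 and 0.021 in epithelial-type (count lower 7), -0.070 and 0.015 in intermediate (4 higher, 6 lower) and 0.26 and 0.11 in mesenchymal-type cells (9 higher). The S sum was 0.44 in macrophages (1 lower) and -0.19 in keratin-high cells (8 higher, 13 lower). With no doublets removed, the G2/M sum was -0.10 in epithelial-type, 0.11 in intermediate (S 0.092, count lower 0), 0.34 in mesenchymal-type and 0.019 in keratin-high cells, and 0.26 (S 0.055) in mixed-profile barcodes. A limit of 50 on ribosomal-repeat RNA, chosen after seeing the data, gave an S sum of -0.031 in epithelial-type, a G2/M sum of -0.015 in intermediate, 0.40 (S 0.019) in mesenchymal-type and 0.0067 (S 0.32, count higher 10) in keratin-high cells. A pseudocount of 1 CPM gave 2 genes higher in intermediate and 1 lower in mesenchymal-type cells. The share of mixed-profile barcodes past the limit was 0.15 with at least 2 UMIs, 0.48 with at least 5 (S -0.062), 0.34 at 1000 UMIs and 0.075 at 4000, and the keratin-high S share was 0.55 at 1000 UMIs. Few cells stand behind the keratin-high (231 iIRE, 149 control) and osteoclast-like (145 iIRE, 110 control) values, and macrophages and mixed-profile barcodes had the lowest depth of the 7 classes.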

Other observations

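Genes that act before S phase were counted in the same way. Of the list of G1 cyclins, their kinases and E2F or MYC factors, 4 of 17 counted genes were past 1.2-fold higher and 0 lower in iIRE macrophages, 2 of 18 higher and 0 lower in epithelial-type cells, and 0 of 18 in mesenchymal-type cells. Of all genes 7.4% were higher and 4.38% lower in macrophages, 0.799% higher and 0.946% lower in epithelial-type cells, and 1.1% higher and 1.03% lower in mesenchymal-type cells. Ccnd1, cyclin D1, had 247.9 CPM in iIRE and 188.4 CPM in control macrophages (log2 ratio 0.38) and 439.6 CPM in iIRE and 416.3 CPM in control epithelial-type cells (0.08). Its partner kinase Cdk4 had 185.1 CPM in iIRE and 169.5 CPM in control macrophages (0.12). Of the list of cyclin-dependent kinase inhibitors, pocket proteins and antiproliferative genes, 2 of 19 were higher and 2 lower in macrophages, near the shares of all genes, and 0 of 21 higher and 1 lower in both epithelial-type and mesenchymal-type cells. Cdkn1a, which encodes the inhibitor p21, had 559.2 CPM in iIRE and 643.2 CPM in control macrophages (-0.20), and Btg1, an antiproliferative gene, 513.1 CPM in iIRE and 566.8 CPM in control (-0.14).

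A few of these genes, chosen after their values were seen, had ratios of 1 sign across classes. Gadd45a, a stress-induced growth arrest gene, was lower in iIRE in all 6 classes in which it could be counted, with 47.9 CPM in iIRE and 72.0 CPM in control epithelial-type cells (-0.50) and 9.88 CPM in iIRE and 21.2 CPM in control macrophages (-0.65). Myc had ratios below 0 in 7 of 7 classes, with 318.0 CPM in iIRE and 381.4 CPM in control epithelial-type cells (-0.26). In keratin-high cells the Myc ratio was -0.01, and there and in macrophages its interval covered 0. Ccnd3, cyclin D3, had ratios above 0 in 7 of 7, with 68.1 CPM in iIRE and 45.5 CPM in control macrophages (0.49). In osteoclast-like cells the Ccnd3 ratio was 0.08 and its interval covered 0.

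Small classes had these values. Host-type fibroblasts had 777 CPM of G2/M genes in iIRE and 92.8 CPM in control, from 64 iIRE and 43 control cells, of which 7 in iIRE and 1 in control were dividing, and the interval of the ratio of these shares spanned 0. T and NK cells had 2839 CPM in iIRE and 1590 CPM in control from 18 iIRE and 54 control cells, with 3 of 15 thinned cells dividing in iIRE and 7 of 48 in control. Levels were 477 CPM in iIRE and 587 CPM in control in dendritic cells, with 4 of 37 dividing in iIRE and 7 of 85 in control, and 908 CPM in iIRE and 985 CPM in control in endothelial cells. The interval of the ratio spanned 0 for both of these dividing shares, of T and NK and of dendritic cells, and for the endothelial G2/M level. The log2 ratio of the G2/M level was 0.84 [0.57, 1.09] in T and NK cells and -0.30 [-0.59, -0.02] in dendritic cells. That of the S level was -0.92 [-1.25, -0.59] in endothelial cells. These level intervals treat the UMIs of a cell as independent. Monocytes were low in both libraries, with 1 of 63 iIRE and 1 of 30 control cells dividing.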
